A study of Mus musculus with 24 samples.

Results

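The 10 genes described here belong to the photoreceptor outer segment and its axoneme and were followed through 24 mouse retinal organoids (MROs): Prph2, Rom1, Prcd, Prom1, Cdhr1, Fscn2, Rp1, Rp1l1, Mak and Tulp1. They were chosen by name, for the place of their proteins in the cell, as the features whose Ensembl identifier carries one of these symbols. Earlier results of these data were known at that choice. The paper reports Rom1, Prcd, Prom1 and Prph2 as upregulated from D20 in the same organoids. The numbers of genes that passed therefore describe these genes and are not an independent test. All 10 were found once each among the 46603 annotated genes and 126602 features counted, and all 10 passed the filter on low counts. The MROs were grown from the wildtype mouse embryonic stem cell line E14Tg2a. All were of the genotype given as Control, with water given as the solvent. By the authors' culture protocol, the MROs also received Matrigel, serum and, before D20, a synthetic retinoid analog. They were sampled as single organoids on 4 days of differentiation (D20, D22, D25 and D30), 6 per timepoint, in 1 independent experiment. RNA was depleted of ribosomal RNA and sequenced. Between 13634846 and 19477108 reads per MRO were counted on a feature. A single line and a single experiment limit what the groups stand for, and p-values measure the spread between organoids of that experiment.

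A photoreceptor outer segment is a modified cilium packed with membrane discs that hold the light receptive machinery. Discs form at its base as outgrowths of the plasma membrane, and their sharply curved rims are shaped by a pair of related tetraspanin proteins. A microtubule axoneme runs from the connecting cilium along the discs, and its length and the alignment of the discs depend on microtubule binding proteins and on ciliary kinases. In the retina, mutations in these genes are known causes of photoreceptor degeneration.

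The rim proteins are peripherin 2, encoded by Prph2 (ENSMUSG00000023978, chr17:46910459-46924933, plus strand, GRCm38), and its relative Rom1 (ENSMUSG00000071648, chr19:8927391-8929356, minus strand). Prcd (ENSMUSG00000075410, chr11:116653534-116668389, plus strand) encodes a small disc membrane protein. Prom1 (ENSMUSG00000029086, chr5:43993620-44102032, minus strand), a protein of membrane protrusions, and the photoreceptor cadherin Cdhr1 (ENSMUSG00000021803, chr14:37077857-37098347, minus strand) act where new discs form. Fscn2 (ENSMUSG00000025380, chr11:120361534-120368168, plus strand) encodes an actin bundling fascin. Rp1 (ENSMUSG00000025900, chr1:3999557-4409241, minus strand) and Rp1l1 (ENSMUSG00000046049, chr14:63992506-64035025, plus strand) encode doublecortin domain proteins of the axoneme. Mak (ENSMUSG00000021363, chr13:41025008-41079706, minus strand) encodes a kinase that limits ciliary length, and Tulp1 (ENSMUSG00000037446, chr17:28351515-28365222, minus strand) a tubby family protein needed for transport of proteins into the outer segment.

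Since the genes rose together, the sequence before their starts is shown for the pair with the largest rise, Prph2 and Rom1, and the pair with the smallest, Cdhr1 and Mak. RefSeq windows (GRCm38.p6) were at hand for 8 of the 10 genes, in 10 windows, and Rp1 and Rp1l1 had none. The 250 bases before each start were searched on both strands for 3 motifs. TAATC (on the opposite strand GATTA) is the core bound by the photoreceptor factor CRX, its longer form TAATCC (on the opposite strand GGATTA) contains it, and TGCTGA (on the opposite strand TCAGCA) is part of the element bound by the rod factor NRL. Below, each sequence runs 5′ to 3′ on the strand of its gene, and capitals mark TAATC or GATTA. The Prph2 window is chr17:46910228-46910477 (plus strand), and the annotated gene begins at base 46910459 inside it. The Rom1 window is chr19:8929357-8929606, that of Cdhr1 chr14:37098348-37098597 and that of Mak chr13:41079707-41079956, all 3 on the minus strand.
Prph2: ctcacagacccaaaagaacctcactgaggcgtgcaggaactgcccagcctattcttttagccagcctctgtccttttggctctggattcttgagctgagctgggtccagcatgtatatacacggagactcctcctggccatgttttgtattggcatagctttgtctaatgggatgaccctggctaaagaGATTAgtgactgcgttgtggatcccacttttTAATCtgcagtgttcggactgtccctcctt
Rom1: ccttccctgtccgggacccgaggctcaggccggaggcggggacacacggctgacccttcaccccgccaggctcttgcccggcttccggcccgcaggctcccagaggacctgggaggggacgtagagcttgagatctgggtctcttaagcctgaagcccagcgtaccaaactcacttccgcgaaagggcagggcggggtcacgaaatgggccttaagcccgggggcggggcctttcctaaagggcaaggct
Cdhr1: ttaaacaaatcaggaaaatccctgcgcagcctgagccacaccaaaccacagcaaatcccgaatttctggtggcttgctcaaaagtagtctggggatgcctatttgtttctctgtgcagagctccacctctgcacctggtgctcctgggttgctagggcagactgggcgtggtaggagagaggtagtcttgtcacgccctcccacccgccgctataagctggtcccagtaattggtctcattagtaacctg
Mak: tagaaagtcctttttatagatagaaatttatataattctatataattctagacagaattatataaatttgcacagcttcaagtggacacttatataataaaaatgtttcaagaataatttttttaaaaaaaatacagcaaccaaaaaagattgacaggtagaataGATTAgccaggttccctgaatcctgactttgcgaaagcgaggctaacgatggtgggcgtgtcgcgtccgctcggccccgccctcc
TAATC was found in 5 of the 10 windows, of 4 genes. Prph2 held it 61 bases before the start on the opposite strand and 30 bases before it on the strand of the gene. Prcd held it 55 and 18 bases before the start, 1 of the 2 Prom1 windows at 28 bases, and the 2 Mak windows at 85 and 218 bases. None was present in these windows of Rom1, Cdhr1, Fscn2 and Tulp1. Starts here are those of the RefSeq windows and need not be the start of the annotated gene. The Prcd window (chr11:116656858-116657107) and the second windows of Prom1 (chr5:44094769-44095018) and Mak (chr13:41070466-41070715) lie inside the annotated gene. Their matches, at 55, 18, 28 and 218 bases, are therefore not before the gene. Of all 32851 windows of this length, 19.8% held TAATC. The longer TAATCC was found in 1 member window, the second of Mak inside the gene, against 6.25% of all windows. TGCTGA was found in 0, against 16.1%. A match is a run of letters and was not tested as a binding site.

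All 10 genes were higher at D30 than at D20, and between 78.6% (Prph2) and 103% (Mak) of the fitted log2 rise was reached by D25. At D22, 8 genes were higher than at D20 and 0 lower, at D25 7 were higher than at D22 and 0 lower, and between D25 and D30 0 passed the test in either direction (edgeR quasi-likelihood test, Benjamini-Hochberg adjustment over 46949 tested features, threshold 0.01). Across the whole interval 10 of 10 passed. Estimates were above 0 for 10, 10 and 8 of the 10 genes in the 3 steps. The background is given over the 16253 annotated genes tested, of which 2.56% were higher at D22 than at D20, 7.33% at D25 than at D22, 4.55% at D30 than at D25 and 25.1% at D30 than at D20. The median log2 fold change of the 10 genes was 0.99, 0.88, 0.22 and 2.12 in these 4 comparisons, against -0.06, 0.10, 0.05 and 0.10 over the annotated genes tested. Any difference among the 4 timepoints was found for 10 of 10 genes and for 43.9% of annotated genes. Of the last interval, 4 genes had an unadjusted p under 0.05 in edgeR (Prph2, Prom1, Cdhr1 and Rp1). Their adjusted p was 0.0206, 0.203, 0.176 and 0.0831. No share of annotated genes is given for this count, so whether 4 of 10 is many cannot be said. DESeq2 called 1 gene of the 10, Prph2, and 1594 of the 16253 annotated genes tested in either direction, so this count does not set the 10 genes apart.

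**Figure D1:**
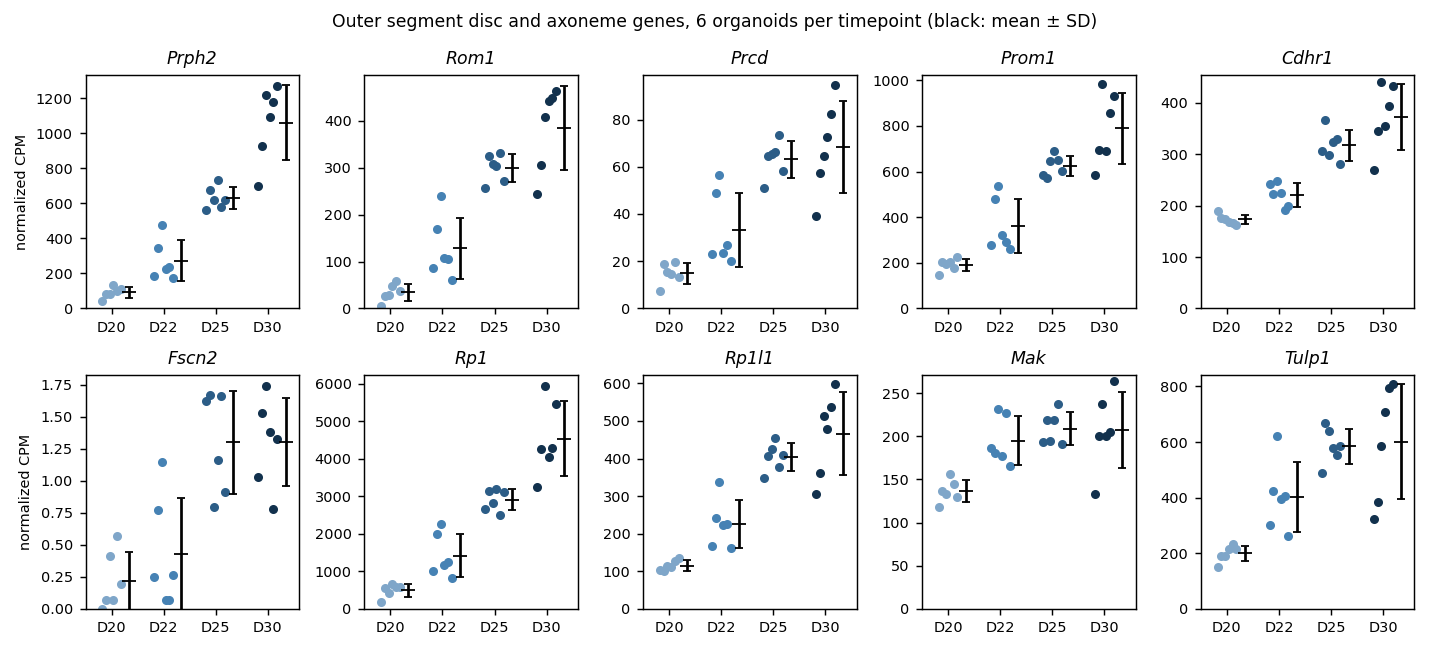
Normalized CPM (counts divided by the megareads of the library counted on features that passed the filter, scaled by TMM) of each of the 10 genes. Each organoid is 1 point, and black gives the mean and SD of 6 organoids (bars of Fscn2 are drawn down to 0). All panels rise from D20 to D25, and the panel of Mak is the flattest, with means of 137 at D20 and 207 at D30.

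The rim genes had the largest fold changes of the 10 over the whole interval. Prph2 had a lowest, median and highest level of 44.3, 92.2 and 134 normalized CPM at D20, of 172, 231 and 475 at D22, of 562, 619 and 733 at D25 and of 700, 1130 and 1270 at D30. Each timepoint up to D25 lay wholly above the one before, and D30 overlapped D25 through its lowest organoid. The mean rose from 93 ± 30.7 at D20 to 1060 ± 213 at D30 (SD, n = 6 each), a log2 fold change of 3.51 ± 0.23 (SE, adjusted p = 2.07e-13, 11.4-fold). Its steps were 1.55 ± 0.21 to D22 (adjusted p = 3.69e-05), 1.21 ± 0.21 to D25 (0.000256) and 0.75 ± 0.21 to D30 (0.0206). The last of these passed 0.01 when D30 organoid 1 was left out (0.00973).

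Rom1 levels at D20 were 6.29, 33.6 and 57.8 normalized CPM (lowest, median, highest). They were 60.9, 107 and 239 at D22, 256, 305 and 331 at D25, and 243, 424 and 464 at D30. As for Prph2, the organoids of D20, D22 and D25 did not overlap, while D30 spanned the range of D25. The rise over the whole interval was 3.48 ± 0.33 on the log2 scale (adjusted p = 6.45e-10, 11.2-fold). The steps were 1.90 ± 0.31 (0.000286), 1.22 ± 0.30 (0.00702) and 0.37 ± 0.29 (0.594). The second step no longer passed 0.01 in 9 of the 12 fits that left out 1 organoid, with adjusted p up to 0.024. The exceptions were the fits without D22 organoid 2, D22 organoid 3 or D25 organoid 1.

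Prcd was a fainter gene, at 7.55, 15.2 and 19.5 normalized CPM at D20, 20.2, 25.1 and 56.5 at D22, 50.9, 65 and 73.6 at D25 and 39, 68.6 and 94.7 at D30 (lowest, median, highest). D22 lay above D20 in every organoid, but D25 and D22 overlapped. It rose by 1.15 ± 0.23 (adjusted p = 0.00274) and 0.93 ± 0.23 (0.00682), and the change after D25 was 0.11 ± 0.22 (0.869). The first step did not pass without D20 organoid 1 (0.0116), D22 organoid 2 (0.0121) or D22 organoid 3 (0.0155), and the second did not pass in the same 9 fits as that of Rom1, with adjusted p up to 0.0238. Of its exon bases 201 (13.1%) are shared with Cygb on the opposite strand, a gene at 7.64 normalized CPM at D20 and 13.8 at D30. Whether the counting used the strand is not given in the sources used here, so reads of this stretch may not be separated.

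Of the genes of disc formation, Prom1 rose more than Cdhr1. Prom1 stood at 145, 199 and 225 normalized CPM at D20, at 259, 306 and 538 at D22, at 571, 625 and 689 at D25 and at 584, 775 and 983 at D30 (lowest, median, highest). The first 3 timepoints did not overlap. The log2 fold changes were 0.92 ± 0.15 (adjusted p = 0.000272), 0.79 ± 0.15 (0.000618) and 0.34 ± 0.15 (0.203), and 2.05 ± 0.15 over the whole interval (5.3e-12). An antisense gene, Gm16401, shares 424 of its exon bases (5.91%) and was between 1.91 and 4.8 normalized CPM on average. Cdhr1 had the tightest organoids at D20, at 163, 171 and 189 normalized CPM. It reached 191, 223 and 248 at D22, 280, 314 and 366 at D25 and 269, 373 and 441 at D30. Although all D22 organoids lay above all D20 organoids, the first step of 0.36 ± 0.10 did not pass (adjusted p = 0.0246). The second step of 0.52 ± 0.10 did (0.000567), and the rise over the whole interval was 1.11 ± 0.10 (1.6e-10, 2.16-fold).

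The axoneme gene Rp1 was the most abundant of the 10. Its levels were 173, 572 and 648 normalized CPM at D20, 819, 1200 and 2250 at D22, 2500, 2960 and 3200 at D25, and 3240, 4270 and 5950 at D30 (lowest, median, highest). It was the only one of the 10 whose organoids did not overlap in any step. The mean rose from 495 ± 177 to 4540 ± 994 (SD, n = 6 each), a log2 fold change of 3.20 ± 0.24 (adjusted p = 6.63e-12, 9.17-fold). The steps were 1.51 ± 0.23 (0.00012), 1.04 ± 0.22 (0.00239) and 0.64 ± 0.22 (0.0831), so that the last did not pass despite the lack of overlap. Rp1 made up 32.9% of the summed normalized CPM of the 10 genes at D20 and 53.5% at D30, while the sum grew from 1452 ± 280 to 8491 ± 1740.

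Its relative Rp1l1 rose less. It stood at 99.3, 113 and 136 normalized CPM at D20, at 162, 224 and 338 at D22, at 347, 408 and 456 at D25 and at 306, 496 and 598 at D30 (lowest, median, highest). D20, D22 and D25 did not overlap, and D30 spanned D25. The steps were 0.97 ± 0.15 (adjusted p = 0.000139), 0.84 ± 0.15 (0.000319) and 0.21 ± 0.15 (0.528), with 2.01 ± 0.15 over the whole interval (6.63e-12).

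Mak and Tulp1 were furthest along by D22. Mak levels were 118, 135 and 156 normalized CPM at D20, 166, 183 and 232 at D22, 191, 206 and 237 at D25 and 133, 203 and 264 at D30 (lowest, median, highest). It was thus higher in every D22 organoid than at D20, with no separation afterwards, and its D30 organoids reached down into the range of D20. The steps were 0.51 ± 0.12 (adjusted p = 0.00753), 0.10 ± 0.12 (0.658) and -0.02 ± 0.12 (0.973), and 0.60 ± 0.12 over the whole interval (0.000124, 1.51-fold). The first step failed 0.01 in 10 of the 12 fits that left out 1 organoid (adjusted p up to 0.0316), all but those without D20 organoid 4 or D22 organoid 6. By D22 85.8% of its fitted log2 rise to D30 was reached, against 63.3% for Tulp1 and between 32.4% and 54.5% for the other 8 genes.

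Tulp1 stood at 152, 202 and 234 normalized CPM at D20, at 262, 400 and 622 at D22, at 489, 582 and 667 at D25 and at 324, 647 and 809 at D30 (lowest, median, highest). D22 lay above D20, whereas the later timepoints overlapped, and the D30 organoids were spread on both sides of D25. The steps were 1.01 ± 0.18 (adjusted p = 0.000981), 0.54 ± 0.18 (0.0494) and 0.04 ± 0.18 (0.952). The second step passed when D22 organoid 3 was left out (0.00679).

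Fscn2 was near the detection limit, and its values rest on few reads. Between 0 and 8 reads were counted per organoid at D20, up to 17 at D22, 13 to 28 at D25 and 12 to 30 at D30. A count of 3 corresponds to 0.166 to 0.216 normalized CPM, which covers counting error only. For D20, D22, D25 and D30 in turn, the mean was 0.218 ± 0.226, 0.428 ± 0.436, 1.3 ± 0.4 and 1.3 ± 0.344 normalized CPM (SD, n = 6). No single step passed (adjusted p = 0.485, 0.084 and 0.998), and the whole interval did, at 2.54 ± 0.64 on the log2 scale (0.00198).

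**Figure D2:**
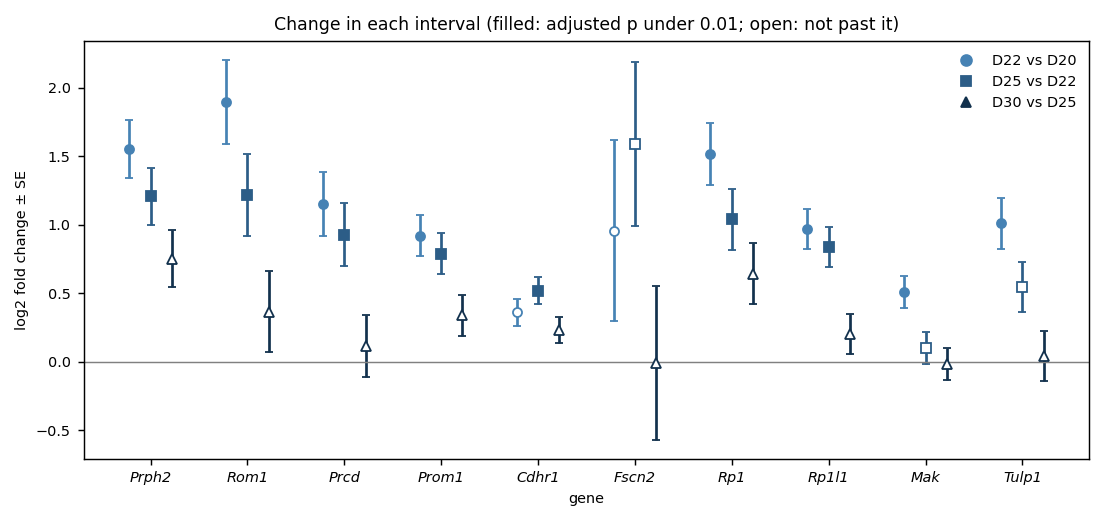
Log2 fold change with its SE (vertical axis) of each gene in each interval; filled symbols passed an adjusted p of 0.01 and open symbols did not. The symbols of D30 against D25 are all open and lie between -0.02 and 0.75.

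In organoids that did not overlap, 9 of the 10 genes were higher at D22 than at D20, 6 at D25 than at D22, 1 at D30 than at D25 and 9 at D30 than at D20. The same held for 2.36%, 7.11%, 4.46% and 17% of the annotated genes tested. Whether a step was smaller than the one before was tested as a contrast of steps, which last 2, 3 and 5 days, both for the whole steps and per day.

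For the whole steps, 0 of 10 genes passed in D25-D22 against D22-D20 in edgeR (1 was below 0 at an unadjusted p under 0.05, Mak), against 0.0246% of annotated genes past 0.01 and 4.32% below 0 at an unadjusted p under 0.05. In D30-D25 against D25-D22, 0 of 10 passed (2 were below 0 at an unadjusted p under 0.05, Prcd and Rp1l1), against 0.0923% and 7.12% of annotated genes. DESeq2 also called 0 of 10 in both contrasts of whole steps. The estimates of the second contrast were below 0 for all 10 genes, from -0.12 ± 0.20 (SE) for Mak to -1.60 ± 0.97 for Fscn2. Per day, 0 of 10 passed in either contrast as well, but more genes had a low unadjusted p. In the first contrast 5 genes were below 0 at an unadjusted p under 0.05 (Prph2, Rom1, Rp1, Mak and Tulp1, adjusted p = 0.255 or more), against 4.69% of annotated genes, with 0.0246% past 0.01. In the second, 8 genes were so, all but Fscn2 and Mak, against 11.1% of annotated genes, with 0.0246% past 0.01. The lowest p was that of Rp1l1, whose log2 rise per day was lower by 0.24 ± 0.07 (SE) after D25 than before (edgeR, unadjusted p = 0.00133, adjusted p = 0.134). These genes were measured in the same organoids and are not independent of each other, and no single gene passed the adjusted threshold.

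Per kilobase of exon, the order of the genes changed with time. At D20, Rp1 (40.2 ± 14.4 normalized CPM per kb, SD, n = 6) and Cdhr1 (39.8 ± 2.17) led, followed by Prph2 (31 ± 10.2), Tulp1 (29.9 ± 4.21), Prom1 (26.6 ± 3.86) and Rom1 (22.7 ± 11.9). Each of these lay within an SD of the next. Mak (18 ± 1.7), Rp1l1 (15.2 ± 1.81), Prcd (9.73 ± 2.83) and Fscn2 (0.103 ± 0.107) followed. At D30, Rp1 (369 ± 80.7 per kb) and Prph2 (354 ± 71.1) did not differ beyond their spread, and Rom1 (254 ± 59.4) came next. Prom1 (110 ± 21.9), Tulp1 (90.2 ± 31.1), Cdhr1 (86 ± 14.8) and Rp1l1 (61.5 ± 14.7) formed the middle, and Prom1, Tulp1 and Cdhr1 each lay within an SD of the next. Prcd (44.6 ± 12.7), Mak (27.2 ± 5.81) and Fscn2 (0.615 ± 0.163) were lowest.

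**Figure D3:**
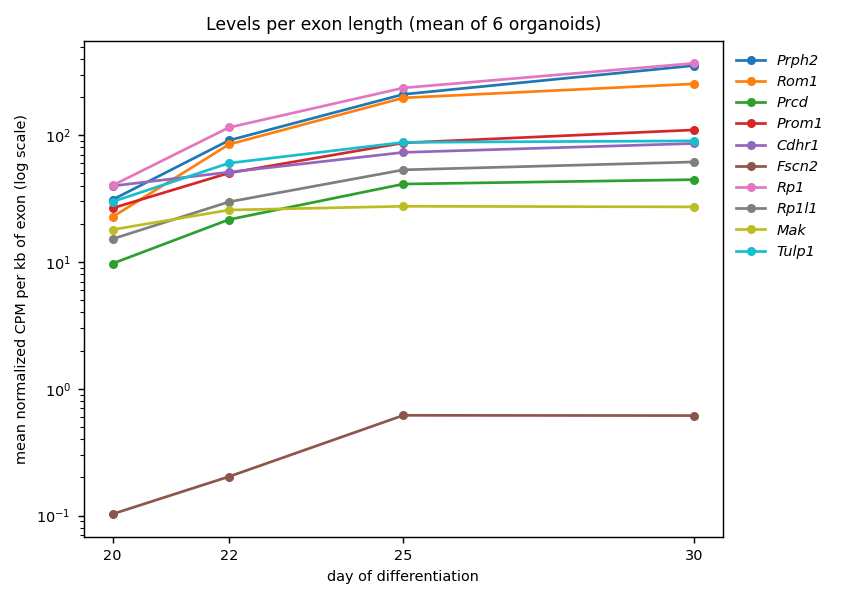
Mean normalized CPM per kb of exon (logarithmic vertical axis, mean of 6 organoids without error bars) against the day of differentiation. Cdhr1 is among the leading genes at D20 with 39.8 and below 5 other genes at D30 with 86, while Prph2 and Rom1 reach 354 and 254.

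Ratios of 2 genes within the same organoid do not depend on library scaling, and 3 pairs were compared in 12 exact two-sided permutation tests of 6 against 6 organoids (smallest possible p = 0.00216, Benjamini-Hochberg adjusted over the 12, threshold 0.05). For the rim pair, the Rom1 to Prph2 ratio of counts was 0.142, 0.345 and 0.574 at D20, 0.355, 0.473 and 0.502 at D22, 0.413, 0.468 and 0.572 at D25 and 0.329, 0.357 and 0.404 at D30 (lowest, median, highest). Every D30 organoid lay below every D25 organoid. The mean log2 ratio fell by 0.40 between D25 and D30 (exact p = 0.00216, adjusted p = 0.00648), and in no other comparison of this pair did the test pass (adjusted p between 0.101 and 0.623). For the axoneme pair, the Rp1l1 to Rp1 ratio was 0.173, 0.222 and 0.603 at D20, 0.121, 0.172 and 0.198 at D22, 0.129, 0.137 and 0.151 at D25 and 0.0848, 0.102 and 0.126 at D30. Its mean log2 value was -1.99 at D20, -2.85 at D25 and -3.29 at D30, and D30 differed from both of the others without overlap (exact p = 0.00216, adjusted p = 0.00648 each). The steps to D22 and to D25 did not pass (adjusted p = 0.0606 and 0.101).

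For the pair of disc formation, the Cdhr1 to Prom1 ratio was 0.725, 0.88 and 1.31 at D20, 0.461, 0.676 and 0.869 at D22, 0.462, 0.487 and 0.64 at D25 and 0.449, 0.463 and 0.514 at D30. Between D20 and D30 its mean log2 value fell by 0.94, with all D30 organoids below all D20 organoids (exact p = 0.00216, adjusted p = 0.00648). The step to D22 fell by 0.52 (exact p = 0.0173, adjusted p = 0.0415). It no longer passed 0.05 in 9 of the 12 tests that left out 1 organoid, so it rests on the full set.

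**Figure D4:**
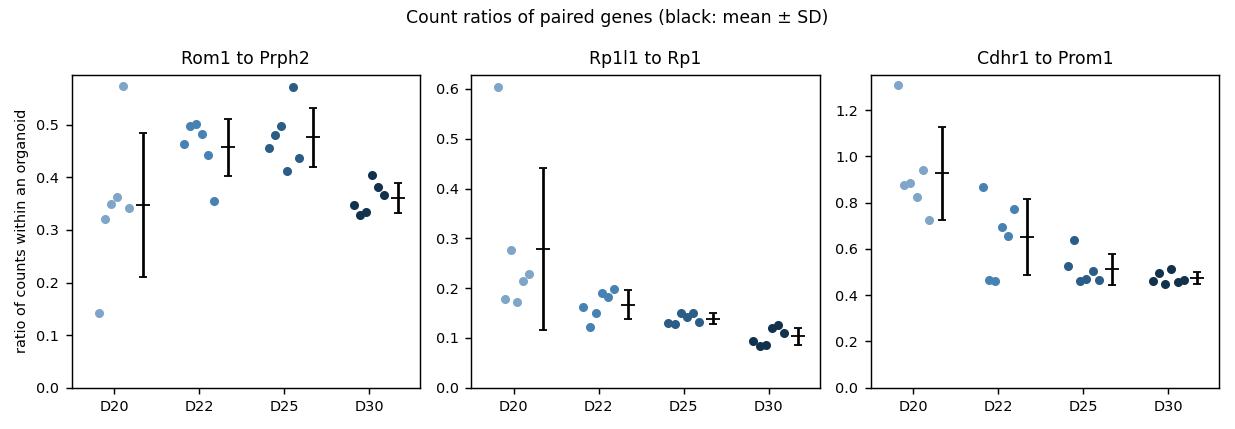
Ratio of counts of 2 genes within each organoid (vertical axis from 0), with 1 point per organoid and the mean and SD of 6 in black. The D30 points of Rom1 to Prph2 (0.329 to 0.404) sit below those of D25 (0.413 to 0.572).

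Within D20, D22 and D30, single organoids were the highest or the lowest for most of the 10 genes. At D22, organoid 3 had the highest level of 10 of 10 genes, where 21.3% of annotated genes were highest, and organoid 6 the lowest of 8, where 14.8% were lowest. At D20, organoid 1 was lowest for 8 of 10 (23.3% of annotated genes), with Rom1 at 6.29 and Rp1 at 173 normalized CPM. At D30, organoid 1 was lowest for 9 of 10 (12.6%) and organoid 6 highest for 6 (8.02%). D25 was different, since no organoid was highest for more than 4 or lowest for more than 5 of the genes, and the mean log2 deviation of the 10 genes lay between -0.12 and 0.11. The rod factor Nrl was at 47.5 normalized CPM in D20 organoid 1 (mean of D20 84.2), at 331 and 137 in D22 organoids 3 and 6, and at 209 and 344 in D30 organoids 1 and 6. Müller glia markers summed to 1988 normalized CPM in D30 organoid 1 and to 563.8 in D30 organoid 6, the highest and the lowest sums of D30. The single markers differed in spread at D30, with Aqp4 at 49.9 to 701, Slc1a3 at 262 to 793, Glul at 127 to 394 and Rlbp1 at 99.9 to 185. In the named organoids of D20 and D22 the sum was 361.5 in D22 organoid 3, 298.6 in D22 organoid 6 and 301.2 in D20 organoid 1 (range of D20 263.6 to 366). The relation of marker sums to the 10 genes was not tested. Progenitor (318), pigment epithelium (37.29) and ependymal (26.49) sums were also highest in D30 organoid 1, and cone (113.5) and bipolar (167.6) sums lowest. D30 organoid 6 had the lowest value of 37.4% of annotated genes. In whole organoids, fewer photoreceptors and less RNA of a gene per photoreceptor cannot be told apart. Without both D22 organoids 2 and 3, in which 9 and 10 of the genes were above the mean of D22, 4 of 10 genes passed between D20 and D22 (Prph2, Prom1, Rp1 and Rp1l1) and 9 between D22 and D25, with 118 and 2159 annotated genes past 0.01 in place of 540 and 1665.

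**Figure D5:**
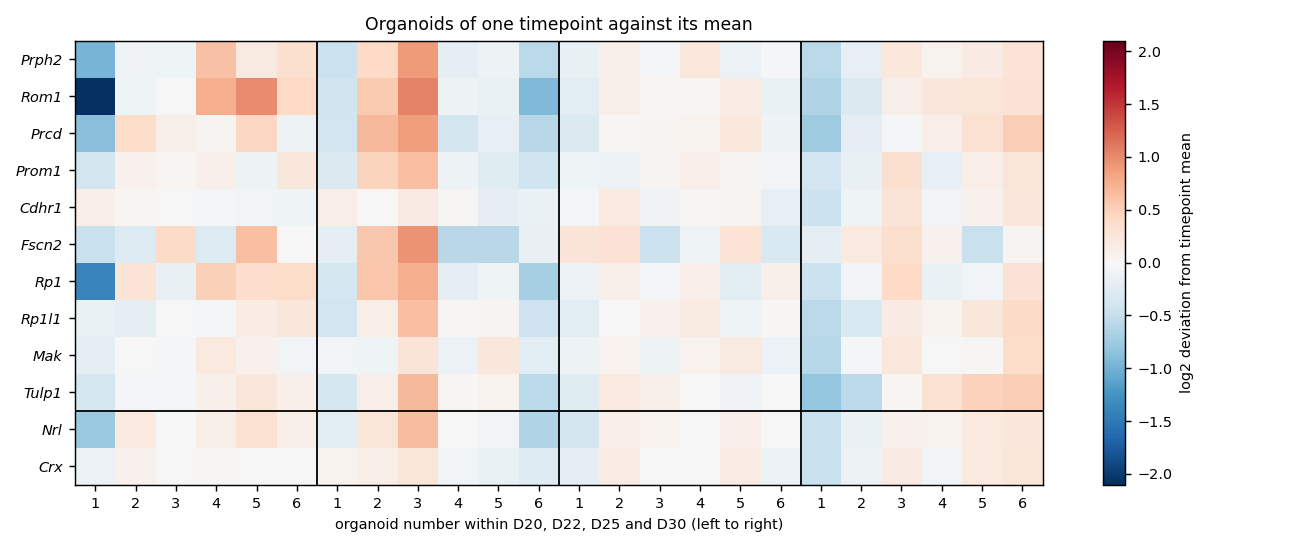
Colour gives the deviation of log2 (normalized CPM + 0.5) of each gene (rows) in each organoid (columns, 6 per timepoint) from the mean of its timepoint; the 2 lowest rows are Nrl and Crx. Organoid 1 of D20 and of D30 and organoid 6 of D22 are mostly blue, and organoid 3 of D22 is red for all 10 genes.

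Of 10 other proteins of discs, rims and the outer segment membrane, 9 rose to D22, 9 to D25 and 8 to D30, and 10 rose over the whole interval, with 0 lower in any. Their median log2 fold change was 1.63, 1.51, 1.12 and 3.92 in the 4 comparisons. The largest rises after D25 were those of the guanylate cyclase Gucy2f (4.32 ± 0.33, adjusted p = 2.19e-10), the rod channel subunit Cnga1 (1.81 ± 0.33, 0.000415), the exchanger Slc24a1 (1.53 ± 0.23, 4.99e-05) and the cyclase Gucy2e (1.24 ± 0.12, 1.53e-08). Gucy2f went from at most 1 read per organoid at D20 to 29.6 to 73.8 normalized CPM at D30. The channel subunit Cngb1 rose to D22 (3.56 ± 0.43, 9.18e-06) and to D25 (2.26 ± 0.37, 0.00017). Rdh8, a retinol dehydrogenase of outer segments, rose by 1.67 ± 0.20 to D22 (7.45e-06), and Wasf3, an actin regulator of disc formation, passed over the whole interval only (0.75 ± 0.10, 7.96e-07). The retinal transporter of the disc rim, Abca4, passed in every step, going from 97.8 ± 5.47 normalized CPM at D20 to 435 ± 69.9 at D30. Of the annotated genes tested, 2.56%, 7.33%, 4.55% and 25.1% were higher in the 4 comparisons.

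Of 14 other axoneme and connecting cilium genes, 13 were matched and tested and Cfap418 was not matched. At D22 4 were higher, at D25 3, at D30 0 and over the whole interval 9, with 0 lower in any. Of the annotated genes tested, 2.56%, 7.33%, 4.55% and 25.1% were higher in these comparisons. For the last interval DESeq2 called 4 of the 13 higher, against 1594 of the 16253 annotated genes tested in either direction. In edgeR 5 of the 13 had an unadjusted p under 0.05, with adjusted p of 0.0334 (Fam161a) or more. No share of annotated genes is given for these 5, so whether they are many cannot be said. The median log2 fold change of the 13 was 0.26, 0.28, 0.25 and 0.75. Rpgrip1, a scaffold of the connecting cilium, rose by 1.33 ± 0.15 to D22 (adjusted p = 4.24e-06) and by 0.73 ± 0.15 to D25 (0.0013). Fam161a, a microtubule binding protein there, rose by 1.13 ± 0.16 (8.77e-05) and 1.01 ± 0.16 (0.000135). Cep290, a tether of the ciliary membrane, rose to D22 (0.77 ± 0.14, 0.000753), as did Rpgr (0.51 ± 0.12, 0.00878), and the small GTPase Arl3, which releases lipidated cargo, rose from D22 to D25 (0.55 ± 0.11, 0.00147). Poc1b, Spata7, Kif17 and Cep164 did not pass over the whole interval (0.38 ± 0.13, 0.33 ± 0.13, 0.28 ± 0.28 and 0.03 ± 0.12).

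Of 17 relatives of the 10 genes by family, 10 were tested, and 1, 3, 0 and 3 were higher in the 4 comparisons, with 0 lower. Of the annotated genes tested, 2.56%, 7.33%, 4.55% and 25.1% were higher, so 3 of 10 over the whole interval was near that share. Between D25 and D30, 2 of the 10 relatives had an unadjusted p under 0.05 in edgeR, with adjusted p of 0.0547 (Tub) or more, and DESeq2 called 0. No share of annotated genes is given for the unadjusted count. Tub, the founding tubby gene, rose to D22 (0.69 ± 0.13, adjusted p = 0.00124) and to D25 (0.86 ± 0.13, 5.08e-05). The doublecortin relatives Dcx (2.58 ± 0.55, 0.00229) and Dclk1 (1.24 ± 0.29, 0.00563) rose to D25, and Mok, a kinase related to Mak, over the whole interval (1.06 ± 0.17, 1.19e-05). Dcx was between 23.2 and 471 normalized CPM in the D30 organoids, and markers of cerebral cortex neurons were also uneven there. The others stood at 396 to 449 (Tulp4), 39.8 to 56.9 (Dclk2), 34.1 to 43.9 (Ick), 33.9 to 45.6 (Fscn1), 18.3 to 23.2 (Tulp3) and 5.99 to 10.4 (Dcdc2a) normalized CPM as means of timepoints, and none of these 6 passed in any comparison. Fscn1 was thus above Fscn2 at all timepoints, at 35 against 1.3 normalized CPM at D30. Prom2, Cdhr2, Cdhr3, Cdhr4, Cdhr5, Fscn3 and Tulp2 did not reach the filter and were at most 1.51 normalized CPM in any organoid.

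The 6 genes whose course over the 24 organoids was closest to the mean course of the 10 were Stx3, Kcnv2, Rpgrip1, Syp, Wdr31 and Adamts3, of 10821 eligible genes. Closeness was the root mean square difference of centred log2 (normalized CPM + 0.5). It was 0.128, 0.133, 0.151, 0.162, 0.174 and 0.178 for these genes, and from 0.154 (Prom1) to 0.726 (Rom1) for the 10 genes themselves. Stx3, a syntaxin of membrane fusion, rose from 150 ± 18.7 normalized CPM at D20 to 733 ± 155 at D30. Kcnv2, a potassium channel subunit of photoreceptors, rose from 50.4 ± 10.9 to 227 ± 34.7, and Syp, a synaptic vesicle protein, from 225 ± 29.8 to 849 ± 164. Adamts3, a secreted protease, rose from 17.2 ± 3.77 to 72.4 ± 14.4 and Wdr31 from 11.6 ± 2.26 to 53.4 ± 12.9.

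Markers of the retina were present and changed over the same days. Of the 16253 annotated genes tested, 4078 were higher and 2712 lower at D30 than at D20, and 1191 were higher at D25 than at D22. The counts of markers below stand beside these numbers. Crx was between 537 and 1100 normalized CPM in all organoids. The summed level of Crx, Nrl, Nr2e3, Rcvrn and Otx2 ranged, for D20, D22, D25 and D30 in turn, over 1040-1427, 1533-2672, 2092-2684 and 1428-2484 normalized CPM. The sum joins unlike courses. Over the whole interval 3 of these 5 rose and Otx2 fell, and the mean of Rcvrn went from 2.89 to 484 normalized CPM. Between D25 and D30 Rcvrn rose (1.51 ± 0.25, edgeR, adjusted p = 0.000162) and Otx2 fell (-1.12 ± 0.11, 1.43e-08). In that step the estimates of Crx, Nrl and Nr2e3 were below 0 and did not pass. Of 4 cone markers 3 rose and 1, Opn1sw, fell over the whole interval (-2.88 ± 0.34 on the log2 scale). Their sums were 86.98 to 134.3 at D20 and 113.5 to 171 at D30, to which Thrb gave means of 78.3 and 106. Progenitor markers summed to 550.9-814.8 at D20 and 173.8-318 at D30, with 4 of 5 lower, and Müller glia markers to 263.6-366 and 563.8-1988, with 3 of 4 higher. Bipolar markers went from at most 33.91 to at least 167.6, with 4 of 4 higher. The ranges of cerebral cortex markers were, in the same order, 3.841-164.6, 1.216-12.01, 3.974-229.5 and 4.767-199.4, with 1 of 4 higher at D25 than at D22 and 0 of 4 over the whole interval. Pigment epithelium markers reached at most 37.29 in any organoid, with Rpe65 at 0 in all D20 organoids, skeletal muscle markers 10.34 and hair cell markers 6.281. Those of ciliated ependymal cells rose from at most 2.774 at D20 to 4.286-26.49 at D30 (2 of 2 tested higher), with Tmem212 at 0 up to D25. The part of these cell types in the levels of the 10 genes was not tested.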

How the data were processed

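RNA sequencing counts of 24 single MROs were used. The authors demultiplexed the reads with bcl2fastq (2.20), trimmed them with cutadapt (1.5), aligned them to GRCm38/mm10 with hisat2, assembled transcripts with stringtie (1.3.3) and counted reads per gene with htseq-count (0.6.1), with tool names from their methods and the submitters' processing notes. The deposited values are whole read counts per feature, without normalization, 46603 annotated genes and 79999 assembled loci, and 5 summary lines were left out. The strand setting of the counting is not given in the sources used here. Between 13634846 and 19477108 reads were counted per organoid.

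Groups and organoid numbers came from the labels. Features averaging 10 or more normalized counts were kept (46949, of them 16253 annotated). Counts were scaled by TMM and tested in 1 fit of 24 organoids with the quasi-likelihood test of edgeR (4.0.16, R 4.3.3), and SE values were derived from its F statistic. Adjusted p-values are Benjamini-Hochberg values over all tested features, with a threshold of 0.01. The scripts were tested on simulated data. Exon lengths and overlaps came from GENCODE vM21 and promoter windows from RefSeq. Alternatives were DESeq2 (1.42.0) as test or for size factors, other filters, annotated genes alone, step contrasts per day, only the compared timepoints, a replicate block, 1 count added to ratios and leaving out organoids. The fit without both D22 organoids 2 and 3 and the search for TAATC were added after results had been seen. The design named contrasts of whole steps only. The contrasts per day and the counts at an unadjusted p under 0.05 were not in it. Figures were drawn with matplotlib (3.10.9).

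The members and lists were chosen with earlier results of these data known. The rule for named genes was all 10 members, every family relative, up to 4 genes per list and comparison with the largest log2 fold change past 0.01, and the 6 genes closest in course among those averaging 100 or more normalized counts. Other listed genes named in the text, among them those that did not pass, and the genes overlapping a member were named after their values were seen.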

Additional observations from a re-analysis of the deposited data

How the results depend on the processing

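With DESeq2 size factors, DESeq2 as the test, no filter, another filter, annotated genes alone, a fit of 2 timepoints or the replicate block, the number of genes past 0.01 stayed 8 between D20 and D22 and 10 between D20 and D30, and was 7 between D22 and D25 except for 5 with annotated genes alone, where Rom1 (adjusted p = 0.0124) and Prcd (0.0139) were lost. Between D25 and D30 it was 1 without a filter and 1 with DESeq2 (Prph2), and 2 in the fit of these timepoints (Prph2 and Rp1). Leaving out 1 organoid gave 6 to 8, 5 to 8, 0 to 1 and 10 to 10 genes in the 4 comparisons. Without both D22 organoids 2 and 3, an alternative chosen after seeing the data, 4 passed between D20 and D22, and the estimate of Fscn2 turned to -0.37; fewer organoids entered that fit.

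Estimates near 0 between D25 and D30 changed sign. With DESeq2 size factors Fscn2 was 0.037 and Mak 0.027, with the DESeq2 test likewise 0.037 and 0.027, and with single organoids left out Fscn2 ranged from -0.11 to 0.10, Mak from -0.10 to 0.083, Tulp1 from -0.064 to 0.17 and Prcd from -0.0016 to 0.23. The cause was not tested.

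Each organoid was lysed whole for its sample, so a number cannot mark the same organoid at another timepoint. Of 36 same-number correlations, 5 were over 0.1 (range -0.206 to 0.365) and 3 were the best for their organoid. These correlations cannot settle whether organoids of one number shared anything else, such as handling. The replicate block gave 8, 7, 0 and 10 genes, changed no call on a gene, and gave Tulp1 -0.00457 between D25 and D30.

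Of the ratios, with 1 organoid left out, Rom1 to Prph2 ranged over 0.25 to 0.66 (D22 against D20, past 0.05 without D20 organoid 5), -0.011 to 0.10 (D25 against D22) and -0.082 to 0.32 (D30 against D20) on the log2 scale. Rp1l1 to Rp1 ranged over -0.72 to -0.36 (D22 against D20, past 0.05 without D20 organoid 2 or 4) and -0.34 to -0.20 (D25 against D22, past 0.05 without D22 organoid 2). Cdhr1 to Prom1 ranged over -0.61 to -0.41 (D22 against D20). The 4 differences without overlap kept an adjusted p of at most 0.0195, and 1 added count changed no call. Fscn2 is limited by depth.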
